A study of Mus musculus with 89 samples.

Results

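Bcan, Ncan, Vcan, Cspg5, Ptprz1, Sdc4, Prelp and Sulf2 are genes of brain proteoglycans, of a related matrix protein of the leucine-rich family and of an enzyme that edits heparan sulfate. They make up 8 of the 24411 genes in the deposited tables of single cells from the mouse dentate gyrus. These genes were chosen by name after their levels in the cell classes, the colour-coded subsets and the ages had been seen. Every level and difference of these 8 genes is therefore a description, and no test was run on any of them.

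The study sequenced single neural stem cells and their progeny from the dentate gyrus, the region of the hippocampus where new granule neurons form, to compare mice of 2 and 4.5 months. All mice were C57BL/6, of the line B6.Cg-Tg(Nes-CFP)1Enik/J, homozygous for the Nestin:CFPnuc reporter, in which the Nestin promoter drives a cyan fluorescent protein in the nucleus. Cells were sorted one at a time with propidium iodide as the viability dye, and cDNA was made from each with the full-length SMART-Seq v4 chemistry and cut into libraries with Nextera XT. There was no other genotype or treatment. Each of the 89 samples is 1 cell, 48 from 2-month and 41 from 4.5-month mice, and the labels tie no cell to an animal, so each age counts as 1 sample and no p-value is given. Each SD below is the spread over cells, not over animals.

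A deposited table puts each cell in a class, read here as quiescent neural stem cell (qNSC, 60 cells), activated neural stem cell (aNSC, 18 cells) and intermediate progenitor cell (IPC, 11 cells). It also gives each cell a colour code, whose meaning is not given in the sources used here. The qNSC cells hold 25 green, 26 red and 9 blue cells. The aNSC cells were split at 10 counts of Pdgfra, the growth factor receptor that marks oligodendrocyte precursor cells. This gave 7 Pdgfra+ cells with at least 531 counts and 11 Pdgfra- cells with 0 counts, so no aNSC cell lay near the threshold. The highest Pdgfra count was 1 in a qNSC cell and 0 in an IPC cell. All 60 qNSC cells had 10 or more counts of Slc1a3, a glutamate transporter of astrocytes and radial stem cells, and 59 had as many of Hopx, a marker of quiescent stem cells. Eomes, the marker of intermediate progenitors, reached 10 counts in 7 of 11 IPC cells and in none of the aNSC cells. In the Pdgfra+ aNSC cells Sox10, the transcription factor of the oligodendrocyte lineage, reached 10 counts in 7 of 7 and Hopx in 0 of 7. The 9 oligodendrocyte precursor markers checked summed to between 7810 and 17360 CPM in these 7 cells and to between 0 and 212 CPM in the Pdgfra- aNSC cells. Pdgfra, which made the split, is 1 of the 9, so part of this gap was fixed in advance.

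Libraries held 234608 to 1896075 counts (median 912394) over 2156 to 6046 genes. Among qNSC cells the median total was 1051925 at 2 months and 865575 at 4.5 months. Markers of other cell types reached 10 counts for at least 50% of a list in 5 cells. Mature oligodendrocyte markers did so in 2 qNSC cells and 1 Pdgfra+ aNSC cell, and endothelial markers in 1 red qNSC cell of 4.5 months. The remaining cell was a 2-month Pdgfra- aNSC cell with both endothelial and mural cell markers.

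Proteoglycans carry long sulfated sugar chains on a core protein. Bcan (brevican), Ncan (neurocan) and Vcan (versican) are lecticans, chondroitin sulfate proteoglycans that bind hyaluronan and tenascins in the brain matrix and are held there by link proteins. Cspg5 (neuroglycan C) is a membrane-spanning chondroitin sulfate proteoglycan, and Ptprz1 is a receptor tyrosine phosphatase whose secreted form is phosphacan and which binds pleiotrophin and midkine. Sdc4 (syndecan 4) is a membrane heparan sulfate proteoglycan at cell adhesions, Sulf2 removes sulfate groups from heparan sulfate outside the cell, and Prelp is a small leucine-rich protein of basement membranes and connective tissue. In the adult brain, astrocytes and oligodendrocyte precursor cells are known sources of lecticans.

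The regions just before the start sites of Vcan and Sulf2, which were high in Pdgfra+ aNSC cells, and of Sdc4 and Prelp, which had at most 1 read in any of them, are shown because these 4 genes passed the fold rule described below in Pdgfra+ cells against both the other aNSC cells and the qNSC cells. Of the 4, Sulf2 alone had ranges that did not overlap, since some cells outside the Pdgfra+ group also had no read of Sdc4 or Prelp and 1 Pdgfra+ cell had none of Vcan. They were read from RefSeq for the build GRCm38.p6, and 7 of the 8 genes had such a sequence. Each gives up to 250 bases before the RefSeq start, trimmed of bases under a GENCODE exon, on the gene's own strand, which is the minus strand for all 4. The Vcan window lies at chr13:89742513-89742762, the Sulf2 window at chr2:166155684-166155933, the Sdc4 window at chr2:164443189-164443438 and the Prelp window at chr1:133921415-133921651. The Sdc4 window, though under no exon, falls inside the GENCODE span of Sdc4 given below. Its RefSeq start is therefore not the most upstream start annotated. Capitals mark matches, on either strand, to 6 short motifs: TATAAA, the GC box GGGCGG, the CCAAT box, the E-boxes CAGCTG and CATCTG, and AACAAT, the core of SOX sites. Matches on the other strand appear as their reverse complement, and no matches overlap.
Vcan: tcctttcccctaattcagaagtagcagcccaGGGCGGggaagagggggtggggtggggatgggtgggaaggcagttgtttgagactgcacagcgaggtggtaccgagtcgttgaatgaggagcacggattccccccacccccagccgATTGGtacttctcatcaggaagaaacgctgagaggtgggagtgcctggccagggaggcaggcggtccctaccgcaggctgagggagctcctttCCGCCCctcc
Sulf2: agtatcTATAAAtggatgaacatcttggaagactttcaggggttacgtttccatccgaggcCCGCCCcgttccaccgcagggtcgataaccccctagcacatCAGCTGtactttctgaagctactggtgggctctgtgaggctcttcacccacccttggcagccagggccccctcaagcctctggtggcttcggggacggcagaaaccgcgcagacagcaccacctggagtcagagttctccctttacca
Sdc4: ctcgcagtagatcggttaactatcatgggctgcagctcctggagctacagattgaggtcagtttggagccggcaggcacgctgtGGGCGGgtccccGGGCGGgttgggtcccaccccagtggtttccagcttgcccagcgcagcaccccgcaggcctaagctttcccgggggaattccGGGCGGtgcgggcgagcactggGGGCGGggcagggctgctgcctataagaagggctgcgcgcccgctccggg
Prelp: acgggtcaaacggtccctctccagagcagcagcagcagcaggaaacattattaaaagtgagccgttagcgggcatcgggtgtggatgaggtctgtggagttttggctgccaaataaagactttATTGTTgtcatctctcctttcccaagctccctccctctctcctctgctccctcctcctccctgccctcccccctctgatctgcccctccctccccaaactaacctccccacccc
Sdc4 held 4 GC boxes and Vcan held 2 with 1 CCAAT box on the other strand. Sulf2 held 1 each of TATAAA, the GC box and CAGCTG, and Prelp held 1 AACAAT match. Among the 32851 RefSeq windows of 250 bases searched, 32.7% held the GC box, 33.9% CCAAT, 13% CAGCTG, 14.4% CATCTG, 12.4% TATAAA and 9.42% AACAAT. GC content was 68% in the Sdc4 window, 62.4% in Vcan, 57.2% in Sulf2 and 56.5% in Prelp. A match is a description of letters and not a bound site.

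On GRCm38 (mm10), with GENCODE vM21 models, the genes lie apart on 7 chromosomes. Bcan spans chr3:87987531-88000230, Ncan chr8:70093085-70120873 and Vcan chr13:89655312-89742509, all on the minus strand. Cspg5 spans chr9:110243783-110262576 and Ptprz1 chr6:22875502-23052916 on the plus strand. Sdc4 spans chr2:164424247-164443887, Sulf2 chr2:166073089-166155663 and Prelp chr1:133910304-133921414, all on the minus strand. All 8 are protein coding, and counts cover the whole exonic gene, with no split by transcript.

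Genes were compared on log2(CPM + 1), with CPM the counts per 1000000 counts of a cell, and levels were set against each other between genes only in TPM, which corrects for length. A gene was counted as different between groups of cells where the mean log2(CPM + 1) differed by at least 1 and the CPM of the summed counts differed at least 2-fold the same way, among genes with a read in 20% or more of the cells of at least 1 of the groups. Every gene in the table went through this fold rule, and the share of genes past it is given beside each count of the 8 genes. That share describes these cells and says nothing of how animals vary.

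**Figure D1:**
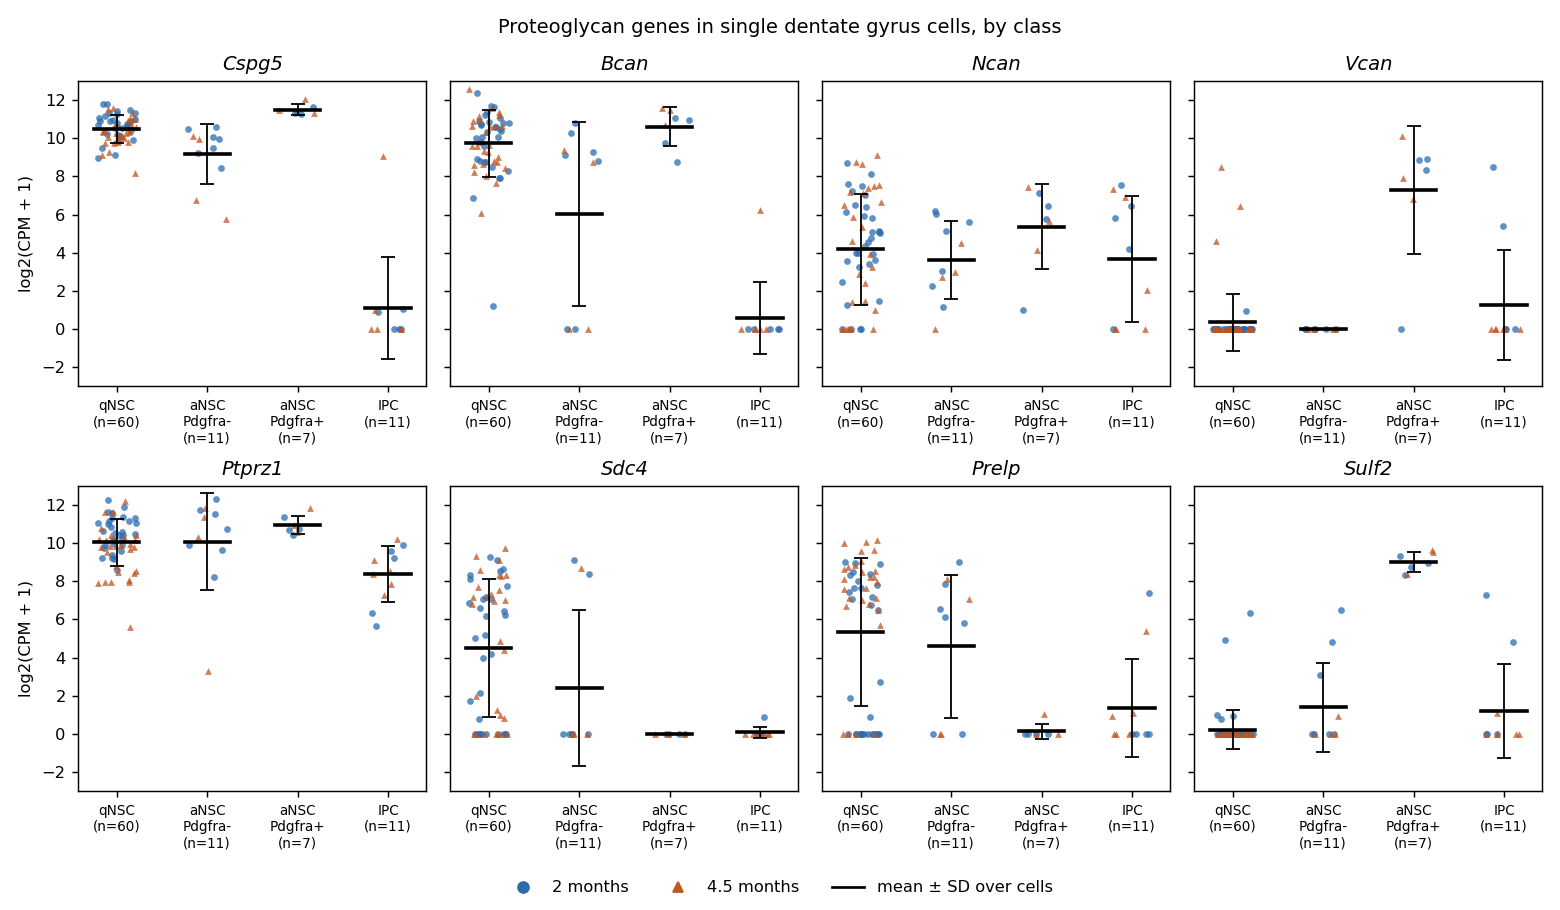
Levels of the 8 genes in each cell, log2(CPM + 1) on the vertical axis, by class on the horizontal axis, with circles for 2-month and triangles for 4.5-month cells and bars for the mean with its SD over cells. Vcan and Sulf2 sit near 0 outside the Pdgfra+ aNSC cells except in single cells, Sdc4 and Prelp sit at or near 0 in those cells, and Cspg5 lies near 0 in 10 of 11 IPC cells.

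Among the membrane and lectican core proteins, Cspg5, Bcan and Ptprz1 were abundant in quiescent stem cells, while Ncan was low and Vcan was listed at 0 in most cells. In deposited TPM the qNSC medians were 595 for Cspg5, 521 for Bcan and 202 for Ptprz1, against 58.8 for Prelp, 31.3 for Sdc4, 4.405 for Ncan and 0 for both Vcan and Sulf2. Cspg5 was above Ptprz1 in 51 of 60 qNSC cells and Bcan above Ptprz1 in 43 of 60. Cspg5 and Bcan could not be ordered beyond their spread, since Cspg5 was the higher in 34 of 60 cells. Set among the 148 genes made up of these 8 and 140 other proteoglycan pathway genes, Cspg5 and Bcan ranked behind 2 genes by median TPM in qNSC cells. These were Timp4, an inhibitor of matrix metalloproteinases, with a median of 852 TPM, and Ptn (pleiotrophin), a ligand of Ptprz1, with 799.8 TPM. In Pdgfra- aNSC cells Cspg5 had the highest median of the 148, 413 TPM, and Ptprz1 stood behind Ptn with 336 TPM. In Pdgfra+ aNSC cells Cspg5 with 1246 TPM and Bcan with 1089 TPM led the list. In IPC cells Mdk (midkine), another Ptprz1 ligand, led with 1035 TPM and Ptprz1 was the highest of the 8 genes with 75.7 TPM.

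Cspg5 was read in all 60 qNSC cells, at 8.18 to 11.81 on the log2(CPM + 1) scale with a median of 10.52. Its mean was 10.49 ± 0.73 (SD, n = 60 cells) there, 9.17 ± 1.58 (n = 11) in Pdgfra- aNSC cells, 11.51 ± 0.28 (n = 7) in Pdgfra+ aNSC cells and 1.10 ± 2.69 (n = 11) in IPC cells. The Pdgfra+ cells stood at 11.33, 11.41, 11.66, 11.25, 12.07, 11.49 and 11.33, and the lowest of them was above all 11 Pdgfra- cells, which reached 10.58. In IPC cells the gene had no read in 7 cells, 1 read in 3 cells and 605 counts in 1 cell of 4.5 months. That cell, at 9.10, was the one IPC cell that overlapped the Pdgfra- aNSC cells, which ranged from 5.74 to 10.58.

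Bcan split the Pdgfra- aNSC cells. In 7 of the 11 it lay between 8.76 and 10.78 on the log2(CPM + 1) scale, and in the other 4 it had no read at totals of 798669 to 878504 counts. Its mean was 9.74 ± 1.75 (n = 60) in qNSC, 6.04 ± 4.82 (n = 11) in Pdgfra- aNSC, 10.60 ± 1.02 (n = 7) in Pdgfra+ aNSC and 0.57 ± 1.89 (n = 11) in IPC cells. Sdc4 had no read in these 4 cells either, as in 4 others, and Prelp had none in 3 of them. The single IPC cell with Bcan reads, 84 counts, was the one with 605 counts of Cspg5. Among qNSC cells 59 of 60 had 10 or more counts of Bcan, and the remaining cell, a green one of 2 months, had 2.

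Ptprz1 was the one gene of the 8 read in every cell of every class. Its mean log2(CPM + 1) was 10.04 ± 1.25 in qNSC, 10.09 ± 2.55 in Pdgfra- aNSC, 10.95 ± 0.49 in Pdgfra+ aNSC and 8.37 ± 1.47 in IPC cells. IPC cells ranged from 5.65 to 10.20 and overlapped the qNSC and Pdgfra- aNSC cells, but all lay below the lowest Pdgfra+ aNSC cell, at 10.45. One Pdgfra- aNSC cell of 4.5 months had 7 counts of Ptprz1, and this cell also had the lowest Cspg5 level of its group, 42 counts.

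Ncan differed little between the classes relative to its spread. Its mean log2(CPM + 1) was 4.17 ± 2.89 in qNSC, 3.61 ± 2.05 in Pdgfra- aNSC, 5.37 ± 2.21 in Pdgfra+ aNSC and 3.67 ± 3.29 in IPC cells. It was read in 48 of 60, 10 of 11, 7 of 7 and 7 of 11 cells of these classes. In IPC cells, where Cspg5 and Bcan were at 0 in most cells, Ncan reached 10 counts in 6 of 11 and its median, 4.52 TPM, stood beside 4.405 TPM in qNSC cells.

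Vcan was read in 6 of 7 Pdgfra+ aNSC cells (exact Clopper-Pearson 95% interval 42.1 to 99.6%), at 253, 446, 619, 228, 807 and 177 counts, and had no read in the other, a 2-month cell. In Pdgfra- aNSC cells it was read in 0 of 11, which with a floor of 3 counts puts the summed level at least 963-fold lower. In qNSC cells it was read in 4 of 60, at 8.48, 6.45 and 4.59 on the log2(CPM + 1) scale in 3 cells of 4.5 months and at 0.94 in a cell of 2 months. In IPC cells it was read in 2 of 11, with 411 and 39 counts, both at 2 months. The Pdgfra+ cell without Vcan reads was the one with mature oligodendrocyte markers, of which 66.7% reached 10 counts.

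Sdc4 was read in 43 of 60 qNSC cells (58.6 to 82.5%), 3 of 11 Pdgfra- aNSC cells, 0 of 7 Pdgfra+ aNSC cells and 1 of 11 IPC cells, the last with 1 count. In the 3 Pdgfra- cells it stood at 115, 263 and 462 counts, within the qNSC range, which reached 825 counts. Thinned to 444835 reads a cell, it was read in 35 of 55 qNSC, 2 of 8 Pdgfra- aNSC, 0 of 7 Pdgfra+ aNSC and 0 of 10 IPC cells. With a floor of 3 counts the summed level was at least 245-fold lower in Pdgfra+ than in Pdgfra- aNSC cells. Intervals and floors cover counting error only, since the reads carry no molecular identifiers.

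Prelp was read in 42 of 60 qNSC cells (56.8 to 81.2%), 7 of 11 Pdgfra- aNSC cells, 1 of 7 Pdgfra+ aNSC cells and 4 of 11 IPC cells. The Pdgfra+ cell had 1 count. The 7 Pdgfra- cells had 446, 178, 14, 43, 18, 108 and 196 counts, and the other 4 had none. In IPC cells the counts were 174 and 39 in 2 cells and 1 in the remaining 2. The mean log2(CPM + 1) was 5.34 ± 3.88 in qNSC, 4.60 ± 3.75 in Pdgfra- aNSC, 0.15 ± 0.39 in Pdgfra+ aNSC and 1.34 ± 2.57 in IPC cells.

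Sulf2 stood at 8.76, 9.33, 8.96, 8.34, 9.55, 8.38 and 9.66 on the log2(CPM + 1) scale in the 7 Pdgfra+ aNSC cells, a mean of 9.0 ± 0.53. The lowest of them was above every cell of the other classes, whose highest values were 6.32 in qNSC, 6.49 in Pdgfra- aNSC and 7.27 in IPC cells. Sulf2 was read in 5 of 60 qNSC cells, all of 2 months and 2 of them with 10 or more counts. Sulf2 shares 154 bases of exon with the neighbouring gene Ncoa3 and the kit does not record strand, so reads there cannot be assigned with certainty. The summed CPM in Pdgfra+ cells was 556 for Sulf2 and 14.5 for Ncoa3.

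The next comparison asks how the 8 genes differ between the 2 kinds of aNSC cells. Of the 8, 5 were higher in Pdgfra+ cells by the fold rule and 2 were lower, where 25.2% of all genes tested were higher by the rule and 17% lower. Since these genes were picked with this contrast in view, nothing is read from that count. The differences in mean log2(CPM + 1) were 7.60 for Sulf2, 7.28 for Vcan, 4.57 for Bcan, 2.33 for Cspg5 and 1.76 for Ncan, and -4.45 for Prelp and -2.39 for Sdc4. Ptprz1 was 0.87 higher and its summed CPM 1.28-fold higher, short of the rule. The precursor markers move with this contrast, as given above, and their part in it was not tested. The median difference over all genes tested was 0.47. In summed CPM Sulf2 was 26.1-fold higher, Cspg5 4.20-fold, Bcan 4.09-fold and Ncan 2.64-fold.

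Against qNSC cells, the Pdgfra+ aNSC cells were higher in Vcan by 6.94 and in Sulf2 by 8.77 on the log2(CPM + 1) scale, and lower in Sdc4 and Prelp, with differences of -4.51 and -5.19. Thus 2 of the 8 were higher and 2 lower by the fold rule, where 34.6% of all genes were higher and 10.3% lower. Cspg5 was 1.02 higher and Ncan 1.20 higher, but their summed CPM ratios of 1.76 and 1.05 did not reach 2. The median difference over all genes tested was 1.12 here, so Cspg5 and Ncan stood near the middle of all genes. The Pdgfra- aNSC cells enter one of these comparisons and the qNSC cells the other, while the same 7 Pdgfra+ cells enter both, so the differences are not independent.

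Between Pdgfra- aNSC and qNSC cells, the difference was -3.70 for Bcan and -1.31 for Cspg5, the 2 genes lower in aNSC cells by the fold rule, where 20.4% of all genes were higher and 5.08% lower. Sulf2 was the one higher, by 1.17, with reads in 4 of 11 against 5 of 60 cells. That call rests on the 2-month cell with endothelial and mural markers, which held 168 of the Sulf2 counts. Without the cells holding markers of other types the Sulf2 difference was 0.64 and its summed ratio 0.762. Prelp missed the rule with a difference of -0.74 and a summed CPM 1.99-fold lower, and without those cells it was called lower at -1.13 and 2.87-fold. Sdc4 was lower by 2.12 on average, with reads in 27.3% of aNSC and 71.7% of qNSC cells, but its summed CPM was 1.40-fold lower. Ptprz1 differed by 0.05. Astrocyte markers moved with this comparison too, and their part in it was not tested. All 12 reached 10 counts in some cell of each class, and their summed CPM was 12842 to 47965 (median 34446) in qNSC and 298 to 40317 (median 14571) in Pdgfra- aNSC cells.

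Past the fold rule between IPC and Pdgfra- aNSC cells were 5 of the 8 genes, all lower in IPC cells. Of all genes tested, 22.8% were higher and 20.5% lower. The differences in mean log2(CPM + 1) were -8.08 for Cspg5, -5.47 for Bcan, -3.25 for Prelp, -2.30 for Sdc4 and -1.72 for Ptprz1. Only 2 of the 8787 genes tested had a larger difference downwards than Cspg5. Its summed CPM was 11.5-fold lower, a value that rests on the 1 IPC cell with 605 counts. Ncan and Sulf2 differed by 0.06 and -0.20. In Cspg5, 10 of 11 IPC cells lay below every Pdgfra- aNSC cell. In Ptprz1 no IPC cell did, and the groups overlapped. In Bcan, Sdc4 and Prelp none could, since some Pdgfra- aNSC cells had no read of these genes either. Sdc4 was read in 27.3% of the aNSC cells, and Bcan and Prelp each in 63.6%. Astrocyte markers moved with this comparison: the median of their summed CPM was 14571 in Pdgfra- aNSC and 1446 in IPC cells, and their part in the result was not tested.

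The other genes of the pathway come from 10 lists of 140 genes in the tables, grouped by role and chosen with earlier results of these data known. In Pdgfra+ against Pdgfra- aNSC cells, 84 of them were tested, of which 32 were higher and 12 lower, with a median difference of 1.27 against 0.47 for all genes. Cntn1 (contactin 1), a neural adhesion molecule that binds the Ptprz1 ectodomain, was 9.0 higher in mean log2(CPM + 1), read in 7 of 7 against 2 of 11 cells. Ugdh, which makes the UDP-glucuronic acid used in chain synthesis, was 6.36 higher at 8.51 ± 0.96 against 2.15 ± 3.29. Cspg4, a chondroitin sulfate proteoglycan that is also one of the precursor markers, was 6.05 higher, and Tnr (tenascin R), a lectican-binding matrix protein, was 5.45 higher with reads in 6 of 7 against 1 of 11 cells. Lower were Tnc (tenascin C) by 3.14, Papss2, a maker of the sulfate donor, by 2.80, Hyal1, a hyaluronidase, by 2.50 and Bgn (biglycan), a small leucine-rich proteoglycan, by 1.89. Tnc, Papss2 and Hyal1 had no read in the 7 Pdgfra+ cells.

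By role, the counts are given beside the 25.2% of all genes that were higher and the 17% lower in this comparison, and several lie near those shares. In Pdgfra+ cells 4 of 6 tested chondroitin sulfate core proteins were higher and none lower, and 4 of 8 linkage region enzymes were higher and none lower. Of 8 tested Ptprz1 ligands and chondroitin sulfate receptors, 4 were higher and none lower. Of 12 chondroitin chain enzymes, 5 were higher and 1 lower, and of 9 heparan sulfate chain enzymes 3 were higher and none lower. Heparan sulfate core proteins were mixed, with 4 of 10 higher and 3 lower. The 3 tested partners of the perineuronal net were also mixed, with Tnr higher and Hapln1 and Tnc lower. Of the 3 tested small leucine-rich proteoglycans, 0 were higher and 2 lower, namely Bgn and Ecm2. Of 6 genes of sulfate donor supply, Papss1 and Impad1 were higher and Papss2 lower. Of 19 proteases, protease inhibitors and chain-degrading enzymes, 5 were higher and 3 lower.

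**Figure D2:**
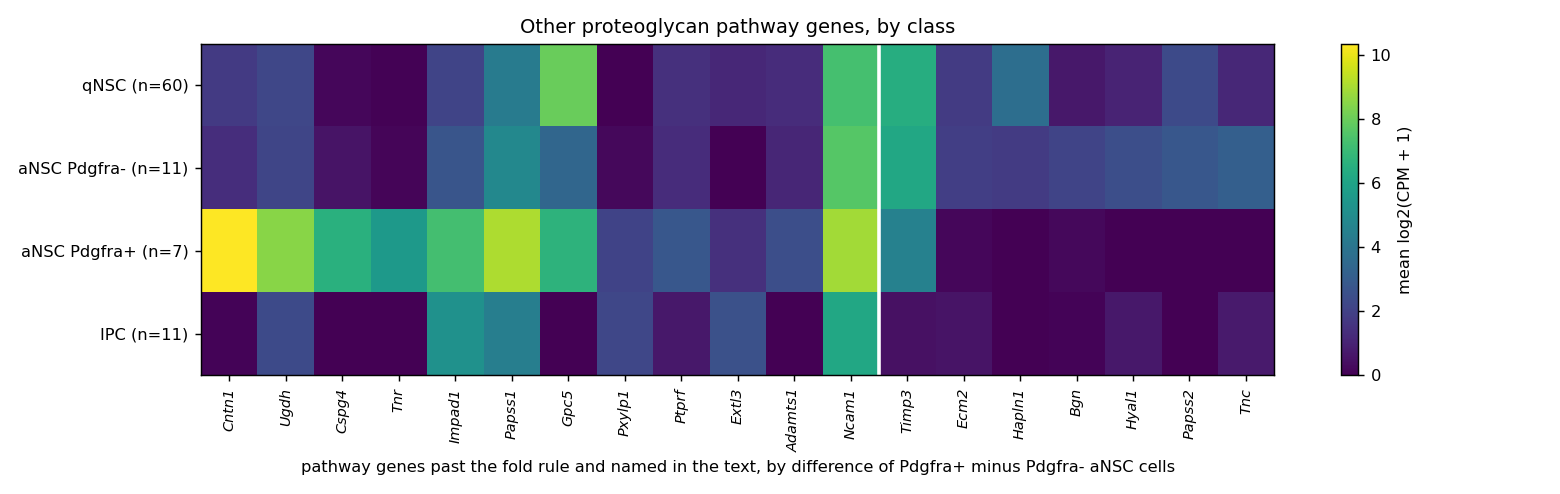
Mean log2(CPM + 1) as colour for 19 of the 44 other pathway genes past the fold rule between Pdgfra+ and Pdgfra- aNSC cells, those that the text names in any comparison, 1 column a gene ordered by that difference and 1 row a class. The 12 columns left of the white line are higher in Pdgfra+ cells, led by Cntn1 and Ugdh, and the 7 to its right are lower, ending with Tnc.

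Against qNSC cells, 60 pathway genes were tested in the Pdgfra- aNSC cells, of which 2 were higher and 7 lower, where 20.4% of all genes were higher and 5.08% lower. Gpc5, a glypican with heparan sulfate chains, had a mean of 3.42 ± 4.23 against 8.00 ± 3.20, and Timp4 one of 4.57 ± 4.60 against 8.95 ± 2.19. Hapln1, the link protein that fixes lecticans to hyaluronan, was lower by 1.93 and Chst12, a chondroitin sulfotransferase, by 1.19. Hyal1 and Bgn were the 2 higher, by 1.48 and 1.45. In IPC against Pdgfra- aNSC cells, 59 were tested, of which 6 were higher and 24 lower, where 22.8% of all genes were higher and 20.5% lower. The median difference was -0.65 against 0.20 for all genes. Of 15 tested proteases, protease inhibitors and chain-degrading enzymes, 10 were lower and none higher. The 10 included the inhibitors of matrix proteases Timp2, Timp3 and Timp4, and Timp3 led with a difference of -5.74. Ptn, the pleiotrophin ligand of Ptprz1, was at 2.40 ± 2.90 in IPC and 7.99 ± 2.46 in aNSC cells. Mdk, the other ligand, differed the opposite way, at 8.72 ± 1.51 against 6.46 ± 2.53, with reads in all 11 IPC cells. The lysosomal enzyme Idua was lower by 3.72 and Gpc5, with no read in IPC cells, by 3.42. Extl3, Pxylp1 and Ptprs, a chondroitin sulfate receptor, were higher by 2.57, 2.00 and 1.84.

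Within qNSC cells, the colours differed in Bcan. Red cells had a mean log2(CPM + 1) of 10.28 ± 1.21 (n = 26) and green cells of 8.89 ± 2.07 (n = 25), a difference of 1.39 with a summed CPM 2.19-fold higher in red. The ranges overlapped, from 8.01 to 12.39 in red and from 1.23 to 11.23 in green, and 6 red cells lay above the highest green cell. At 2 months the means were 10.63 ± 1.07 (n = 13) in red and 8.76 ± 2.43 (n = 15) in green cells, with summed CPM of 2287 and 773. At 4.5 months they were 9.92 ± 1.28 (n = 13) and 9.07 ± 1.47 (n = 10), with summed CPM of 1215 and 846, a gap short of the rule. Bcan was the only one of the 8 past the fold rule between red and green, where 6.08% of all genes were higher in red and 11.1% lower. In deposited TPM, Bcan was above Cspg5 in 16 of 26 red cells and in 7 of 25 green cells. Bcan was above Ptprz1 in 22 of 26 red and 12 of 25 green cells. Prelp was 1.01 higher in red, but its summed CPM was 1.34-fold higher, and Ptprz1 was 0.52 lower. Cspg5, Ncan and Sdc4 differed by -0.14, 0.63 and 0.07. Markers of astrocytes and of quiescent stem cells moved with the colours in opposite directions, and their part in the Bcan difference was not tested. The 12 astrocyte markers, all of which reached 10 counts in cells of both colours, summed to 18190 to 47965 CPM (median 39793) in red and 18515 to 43959 CPM (median 27531) in green cells. The 9 quiescent stem cell markers, of which 7 reached 10 counts in a red cell and 9 in a green cell, summed to 600 to 10299 CPM (median 3076) in red and 640 to 14415 CPM (median 6247) in green cells.

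Blue cells, of which there were 9, did not differ from the other 51 qNSC cells in any of the 8 genes by the fold rule, where 5.97% of all genes were higher and 22.6% lower. Mean log2(CPM + 1) was 5.58 ± 2.96 in blue cells for Sdc4, 1.27 above the others, and 5.12 ± 3.28 for Ncan, 1.11 above the others. Both had a summed CPM ratio under 2, 1.24 for Sdc4 and 1.73 for Ncan. Ptprz1 was 0.93 lower in blue cells and ranged from 5.58 to 11.34. Blue cells were shallower, with a median of 793971 counts against 1004305 in green and 974499 in red cells. The median over all genes tested was -0.51 in this comparison.

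**Figure D3:**
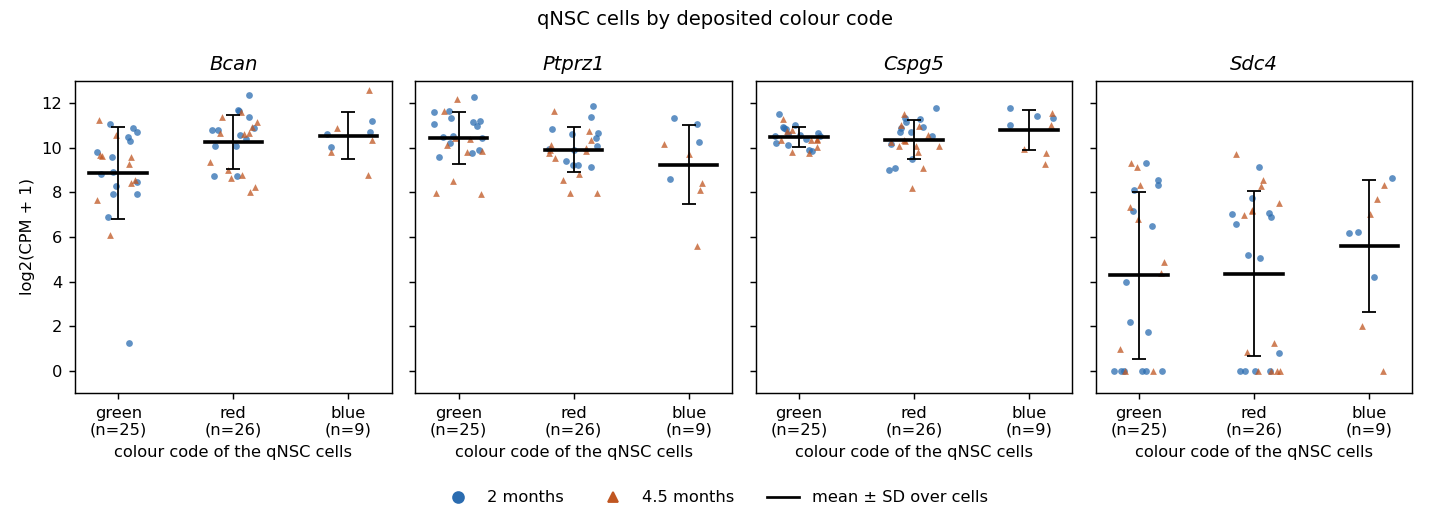
Levels of Bcan, Ptprz1, Cspg5 and Sdc4 in each qNSC cell, log2(CPM + 1) on the vertical axis, by colour code, with circles for 2-month and triangles for 4.5-month cells and bars for the mean with its SD over cells. Bcan averages 10.28 in red, 10.55 in blue and 8.89 in green cells, and Cspg5 stays between 10.37 and 10.80.

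Among the other pathway genes, 61 were tested between red and green cells, with 10 higher and 6 lower in red, where 6.08% of all genes were higher and 11.1% lower. Papss2 was read in 13 of 26 red and 2 of 25 green cells, a difference of 3.03, and Cntn1 in 12 of 26 and 3 of 25, a difference of 2.42. The adhesion molecule Ncam1 was higher in red by 1.92. App, an amyloid precursor protein that can carry a chondroitin sulfate chain, was lower by 2.34, Ugdh by 1.75, Galns by 1.19 and Chsy1 by 1.16. In blue cells Mmp14, a membrane-bound matrix metalloproteinase, had no read in 9 cells and was read in 32 of the other 51. Adamts1, a protease that cuts lecticans, was read in 5 of 9 blue and 9 of 51 other cells, at a mean of 3.94 ± 4.37 against 0.85 ± 2.07.

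Prelp was the one gene of the 8 that differed with age across qNSC cells by the fold rule. Its mean log2(CPM + 1) was 3.86 ± 3.91 (n = 32) at 2 months and 7.03 ± 3.13 (n = 28) at 4.5 months. The difference of 3.16 ranked 2 from the top of the 7247 genes tested, of which 3.81% were higher by the rule and 8.1% lower. Prelp was part of what picked these genes, so this is a description of the choice. Cells ranged from 0 to 9.01 with a median of 2.32 at 2 months and from 0 to 10.15 with a median of 8.04 at 4.5 months, so the ages overlapped, with 6 cells of 4.5 months above all cells of 2 months. Summed CPM was 133 (exact Poisson 95% interval 129 to 137) at 2 months and 379 (371 to 386) at 4.5 months, a ratio of 2.85.

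The share of cells with Prelp differed more than the level in those cells. Prelp reached 10 counts in 15 of 32 cells of 2 months (46.9%, exact interval 29.1 to 65.3%) and in 24 of 28 of 4.5 months (85.7%, 67.3 to 96.0%). In the cells that reached 10 counts the mean log2(CPM + 1) was 7.87 ± 0.80 (n = 15) and 8.20 ± 1.22 (n = 24). No read was found in 14 and 4 cells. Thinned to the same depth, Prelp was read in 18 of 30 and 23 of 25 cells, with 2 and 3 shallow cells left out, and reached 10 counts in 15 and 23.

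Prelp passed the rule within red and within green cells taken alone. In red cells Prelp was at 3.75 ± 4.25 (n = 13) at 2 months, with 7 cells at 0, and at 8.22 ± 0.98 (n = 13) at 4.5 months, where every cell had at least 65 counts. This difference of 4.47 ranked 3 from the top of the 7787 genes tested in red cells, of which 10.4% were higher by the rule and 14.2% lower. In green cells it was at 3.86 ± 3.95 (n = 15) and 6.64 ± 3.71 (n = 10), with 6 and 2 cells at 0, a difference of 2.78 where 11.9% of all genes were higher and 14.3% lower. In blue cells the 4 of 2 months stood at 2.73, 0.00, 6.51 and 7.66 and the 5 of 4.5 months at 0.00, 6.51, 6.82, 0.00 and 10.15. The blue means of 4.23 and 4.70 differed by 0.47, short of the rule, and the ages overlapped. Among blue cells 15.6% of all genes were higher at 4.5 months and 28.4% lower. Whether the age difference itself differs between the colours was not tested.

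**Figure D4:**
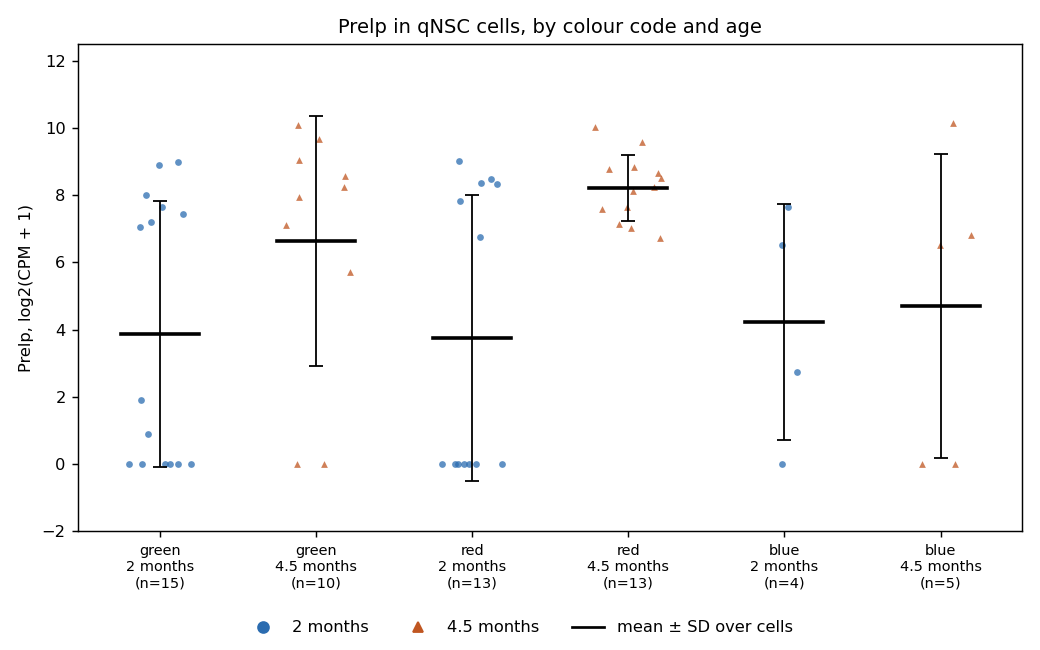
Prelp in each qNSC cell, log2(CPM + 1) on the vertical axis, by colour code and age, with circles for 2-month and triangles for 4.5-month cells and bars for the mean with its SD over cells. In red cells 7 of 13 cells lie at 0 at 2 months and none at 4.5 months, and in green cells 6 of 15 have no read at 2 months and 2 of 10 at 4.5 months.

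Age and sex cannot be told apart in these cells. Among qNSC cells 24 of 32 of 2 months reached 10 reads for some Y-linked gene and none did so for Xist or Tsix, while 0 of 28 of 4.5 months did for the former and 25 for the latter. The 10 markers of fibroblasts and leptomeningeal cells, where Prelp is also known, summed to 0 to 1595 CPM with a median of 45.7 at 2 months and to 0 to 1200 CPM with a median of 68.5 at 4.5 months. Of these, 3 reached 10 counts in any cell at each age, Dcn and Lum were at 0 at both, and no cell had 50% of the list. Pdgfrb, also on the list, reached 10 counts in 9 of 32 cells of 2 months and 9 of 28 of 4.5 months. Its mean log2(CPM + 1) was 1.99 ± 2.87 and 2.74 ± 2.96. Col1a1 reached 10 counts in 3 and 2 cells, and the part of these markers in the Prelp difference was not tested. Astrocyte markers summed to a median of 34334 CPM at 2 months and 38428 CPM at 4.5 months. Aqp4, the astrocyte water channel, was at 6.81 ± 4.35 and 7.97 ± 3.46, and its part in the result was not tested. Prelp shares 350 bases of exon, 9.68% of its exonic length, with the gene model Gm15851, and reads there cannot be assigned by strand.

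The other 7 genes did not pass the rule with age in qNSC cells, and 5 of them were tested. Ptprz1 was lower at 4.5 months by 1.00 on the log2(CPM + 1) scale, at 9.51 ± 1.40 against 10.51 ± 0.89, and its summed CPM was 1.62-fold lower. Ptprz1 was also lower in each colour, by 0.92 in green, 0.57 in red and 1.91 in blue cells, and the last passed the rule, as 28.4% of all genes did in that direction. In blue cells Ptprz1 stood at 11.07, 8.59, 10.24 and 11.34 at 2 months and at 10.19, 9.72, 8.42, 5.58 and 8.09 at 4.5 months, which overlap. Cspg5 was lower by 0.39, Bcan by 0.03 and Ncan by 0.56, and Sdc4 was higher by 0.51. The median over all genes tested was -0.22. Ncan reached 10 counts in fewer cells at 4.5 months but stood higher in those that did. It reached them in 23 of 32 cells with a mean of 5.62 ± 1.57 at 2 months and in 14 of 28 with a mean of 6.87 ± 1.53 at 4.5 months. In green cells the shares were 11 of 15 and 3 of 10, and in blue cells 4 of 4 and 3 of 5. In red cells the share was 8 of 13 at both ages. Vcan and Sulf2 were read in too few cells to be tested, Vcan in 1 of 32 and 3 of 28 and Sulf2 in 5 of 32 and 0 of 28.

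Of the other pathway genes, 59 were tested with age in qNSC cells, of which 3 were higher and 1 lower at 4.5 months, where 3.81% of all genes were higher and 8.1% lower, so the count higher is near the background. Hapln1 was read in 15 of 32 cells at a mean of 3.06 ± 3.75 and in 16 of 28 at 4.48 ± 4.24. Chsy1, which extends chondroitin chains, was higher by 1.29 and B3gat3, which completes the linkage region, by 1.22. Ptprs was lower by 1.24. In green cells Hapln1 was higher by 3.38, with reads in 6 of 10 against 4 of 15 cells, and Mmp14 lower by 3.39. In red cells App was higher by 4.06, with reads in 12 of 13 against 3 of 13 cells. App was lower at 4.5 months by the rule in the other colours, with differences of -1.53 in green and -3.39 in blue cells, and whether the colours differ in this was not tested. Ptprf, another chondroitin sulfate receptor, was lower by 1.62 in red cells.

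In the smaller classes each age held 3 to 7 cells and single cells set the values. Pdgfra+ aNSC cells showed none of the 8 past the rule with age, where 20.1% of all genes were higher at 4.5 months and 32.5% lower. Their Bcan levels were 11.06, 9.75, 10.97 and 8.74 at 2 months and 11.58, 11.46 and 10.67 at 4.5 months, which overlap. In Pdgfra- aNSC cells Ncan and Sulf2 were lower at 4.5 months, by 1.63 and 1.83, where 24% of all genes were higher and 23% lower. Prelp was 1.25 lower at 4.5 months in these cells, with reads in 2 of 4 against 5 of 7, and its summed CPM was 1.65-fold lower. In IPC cells Vcan and Sulf2 were lower and Cspg5 higher at 4.5 months, where 12.8% of all genes were higher and 26% lower. Each of these 3 IPC differences came from 1 or 2 cells, and the Cspg5 difference was 1.29 with the cell of 605 counts and -0.02 without the highest cell of each age. Tests of whether age differences vary between classes were not run.

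Across the 60 qNSC cells, the gene whose level went most with Bcan was Gpr37l1, a receptor of astroglial cells, with a Spearman correlation of 0.68 among 2473 genes searched. Kcnk1, a potassium channel, was also among the 3 most alike, with 0.64. For Ptprz1 the 3 most alike were Gm5424 at 0.61, Emid1 at 0.59 and Itm2c at 0.57, and for Cspg5 Ctbp1 at 0.53, Decr1 at 0.42 and Acsl6 at 0.41. For Prelp they were Luzp2 at 0.48, Ntmt1 at 0.45 and Dpm1 at 0.42, for Sdc4 Gtf2a2 at 0.51, Cox8a at 0.43 and Ndufa1 at 0.42, and for Ncan Dag1, Slc13a3 and Abcd3, each at 0.46. Between the 8 genes the values were lower: 0.35 for Cspg5 with Bcan, -0.29 for Bcan with Ptprz1 and -0.28 for Ptprz1 with Sdc4. Cells share colour, age and depth, and the correlation of a gene's level with depth was -0.04 for Bcan, 0.14 for Ptprz1 and 0.11 for Prelp. These correlations describe the cells, and in sparse counts a weak one is no finding.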

How the data were processed

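The authors deposited a table of estimated (expected) counts per gene and a table of TPM (length-corrected transcript levels), with 1 column a cell, and a table of classes and colours. STAR, RSEM and the build mm10 are named per the submitters' processing notes, with no versions given there. In the deposited estimated counts 4.44% of values above 0 were not whole (tolerance 1e-06), none of them among the 8 genes, and these were rounded to count reads. The deposited TPM summed to 1000000 a cell and were used for levels between genes. CPM used each cell's total count and a pseudocount of 1 on the log2 scale. No 2 cells held identical values, and no column was left unmapped.

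The genes and the pathway and marker lists were chosen with earlier results of these data known. Named beside the 8 genes are at most 4 pathway genes a direction in each comparison, by size of difference among those past the fold rule, genes of lists with 3 or fewer past it, defining markers, and the 3 genes most alike over qNSC cells. Some genes that fall under this rule are not reported here. Depth was evened by thinning to 444835 reads, which 80 cells reached and 9 did not. Shares have exact Clopper-Pearson and sums exact Poisson 95% intervals, and a count of 0 has a floor of 3 counts. Alternatives were TMM scaling, deposited TPM, a pseudocount of 10, no filter, thinned cells, medians, the ratio of sums, other Pdgfra splits, and cells left out. The fold rule was tried on simulated counts for the qNSC age comparison only, with the changes set in genes read in most cells. The other comparisons were not simulated. Python 3.11.15, pandas 2.3.3, numpy 2.4.6, scipy 1.17.1 and matplotlib 3.10.9 were used, with edgeR 4.0.16 in R 4.3.3 for TMM factors.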

Additional observations from a re-analysis of the deposited data

Results flagged for a closer look

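In sets of 4 to 10 cells of a class or colour, single cells far from the others were looked for in 15 sets of a gene and a group. Chance flags about 1 in 20 groups of normally distributed values, a rate not shown to hold for sets such as these where nearly all values can be 0, and the cells are not replicates of a condition. In the 7 Pdgfra+ aNSC cells Vcan was at 0 in 1 cell, while the next lowest was at 6.80 on the log2(CPM + 1) scale. That cell, of 2 months, also had 66.7% of the mature oligodendrocyte markers at 10 or more counts, 1 count of Ncan and 433 counts of Sulf2. Prelp stood at 1.04 in 1 of the same 7 cells, which is 1 count, and at 0 in the others. Among the 9 blue qNSC cells Vcan stood at 4.59 in 1 cell of 4.5 months with 24 counts and at 0 in the others. Sulf2 stood at 0.77 in 1 blue cell of 2 months, again 1 count, and at 0 in the others. A single count is at the limit of what these libraries can show.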

How the results depend on the processing

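Of the differences of genes past the fold rule, recomputed under each alternative, 268 moved by less than the spread over cells, 14 moved by more and 1 changed sign. Part of the 268 could not move. Dropping the filter leaves a difference as it was, and splits at 1 and 100 counts of Pdgfra hold the same cells. Prelp in qNSC cells was 3.16 higher at 4.5 months, and 3.19 with TMM, 2.76 in TPM, 2.03 with a pseudocount of 10 and 3.47 in thinned cells. The larger changes in the number of the 8 genes past the rule were as follows, and the cause was not tested. Smaller ones, such as that from Prelp without cells holding markers of other types given above, are not listed. For Pdgfra- aNSC against qNSC cells, 0 were higher in TPM, with a pseudocount of 10, in thinned cells, by medians and without cells holding markers of other types, and 1 was lower in TPM. For Pdgfra+ against Pdgfra- aNSC cells 1 was lower by medians. For IPC against Pdgfra- aNSC cells 1 was higher without a filter and in thinned cells (Vcan), and 1 by medians and by the ratio of sums alone (Ncan). For blue against other qNSC cells 1, Ncan, was higher with TMM. With age in red cells 2 were higher by the ratio of sums alone, Ncan and Prelp. With age in blue cells 2 were higher in thinned cells, where 3 of 5 older cells were left out, and by the ratio of sums, and 1 by medians, while 2 were lower without the highest cell of each age. Leaving out each blue cell in turn gave 0 to 2 higher and 1 to 2 lower.

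With age in Pdgfra- aNSC cells 0 were lower with a pseudocount of 10, 1 by medians, 1 without cells holding markers of other types, and 4 without the highest cell of each age. Leaving out each of these cells in turn gave 1 to 5 lower. With age in Pdgfra+ aNSC cells 1, Bcan, was higher without the cell holding oligodendrocyte markers, and 0 to 1 when each cell was left out in turn. With age in IPC cells 0 were higher with a pseudocount of 10, by medians and without the highest cell of each age, 2 without a filter, and 0 were lower by medians. Leaving out each IPC cell in turn gave 1 to 2 higher and 2 to 3 lower. The Cspg5 difference with age in IPC cells turned to -0.025 without the highest cell of each age.

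Counts over all genes past the rule shrank to 29.2 to 61.0% of those reported by medians and to 17.8 to 74.1% with a pseudocount of 10, and came to 109.9 to 313% by the ratio of sums alone. With age in qNSC cells 276 genes were higher and 587 lower, against 49 and 138 with a pseudocount of 10, 95 and 172 by medians, and 865 and 1198 by the ratio of sums. Between Pdgfra+ and Pdgfra- aNSC cells 2416 were higher and 1627 lower, against 1544 and 954 with a pseudocount of 10 and 1335 and 750 by medians. In thinned cells 622 genes were lower in Pdgfra- aNSC than in qNSC cells, against 408. The correlation of Cspg5 with Bcan over qNSC cells, 0.35 by Spearman, was 0.13 by Pearson and 0.05 among cells of 4.5 months.

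No paired analysis was possible because the numbers in the titles name cells and each age is 1 sample with no animal given. Levels near 1 count cannot be told from 0 at these depths, and groups of 3 to 11 cells leave shares with wide intervals.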

Other observations

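The link proteins, which tie lecticans to hyaluronan, lie beside the lectican genes on GRCm38 with no protein-coding gene between. Hapln1 lies 43659 bases from Vcan, Hapln2 21519 bases from Bcan and Hapln4 2222 bases from Ncan. Hapln1 was read in 31 of 60 qNSC, 3 of 11 Pdgfra- aNSC, 0 of 7 Pdgfra+ aNSC and 0 of 11 IPC cells, and Vcan in 4, 0, 6 and 2 cells of these classes. Hapln2 was read in 2 of 60 qNSC cells although Bcan was read in all 60, and Hapln4 was listed at 0 in all 60 qNSC cells while Ncan was read in 48. Acan, the lectican of perineuronal nets, was listed at 0 in all 89 cells.

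Sulf1, the other extracellular heparan sulfate sulfatase, was read in 2 of 60 qNSC, 2 of 11 Pdgfra- aNSC, 1 of 7 Pdgfra+ aNSC and 0 of 11 IPC cells. Fmod, a small leucine-rich proteoglycan gene 115839 bases from Prelp, was read in 3 of 60 qNSC cells, against 42 of 60 for Prelp. In blue qNSC cells Sdc3, a neural syndecan, was at 6.87 ± 1.30 (SD, n = 4 cells) in log2(CPM + 1) at 2 months and at 0.83 ± 1.16 (n = 5) at 4.5 months, with reads in 4 of 4 and 2 of 5 cells. The older blue cells were shallower, with a median total of 442930 counts against 795080, and the part of depth in this was not tested.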
